A study of Mus musculus with 14 samples.

Results

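Mitochondrial beta-oxidation was followed here through 10 of its enzymes and electron carriers in subcutaneous white adipose tissue of running and sedentary mice. The members are the acyl-CoA dehydrogenases Acadvl, Acadl, Acadm and Acads, the trifunctional protein subunits Hadha and Hadhb, the hydroxyacyl-CoA dehydrogenase Hadh, the thiolase Acaa2, and the electron carriers Etfb and Etfdh. They were taken by name from the array's gene symbols, by a rule that sets no threshold on their values, although earlier results of these data were known when they were listed, and all 10 passed the filter on weak signals, as did 12945 genes in all. Each gene was read at its probe set with the highest mean signal over the arrays. The study placed male C57BL/6 mice in an exercised group, housed in cages with running wheels for 11 days, and a sedentary control group of the same duration. All mice were 12 weeks old by the labels, and none carried a transgene or received an agent by the labels. Total RNA of the frozen fat depot was hybridised to 14 Affymetrix arrays, 7 exercised and 7 sedentary. The labels do not say that the arrays came from separate animals, so each p-value speaks only of the variation among these arrays, some of which may be technical, and they give no distance run.

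Beta-oxidation shortens a fatty acyl-CoA in the mitochondrial matrix by repeated rounds of dehydrogenation, hydration, a further dehydrogenation and thiolysis, and each round releases acetyl-CoA. The acyl-CoA dehydrogenases differ in the chain length they prefer, and they hand their electrons to the electron transfer flavoprotein and from there, through Etfdh, to ubiquinone of the respiratory chain. White fat is known mainly for storing fatty acids and releasing them to other tissues, whereas brown and beige adipocytes burn them at a high rate to make heat.

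Signals are Affymetrix intensities on a linear scale shared by all arrays, and differences are exercised minus sedentary means of log2(signal + 46.7). Folds are on that scale. A gene is said to have risen or fallen where limma's moderated test, adjusted by Benjamini-Hochberg over the 12945 genes, gave an adjusted p under 0.05. Over all genes tested, 716 passed, 518 higher and 198 lower. With each array centred on its median the split was 547 higher and 86 lower. The median difference of all genes was -0.03.

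Of the 10 members, 9 rose and 0 fell, where 4% of all genes tested rose. The other member, Hadh, had a positive difference that missed the threshold. The members' median log2 difference was 0.82, and single differences ran from 0.51 for Hadh to 1.05 for Etfdh and Acadvl. For 8 members every exercised array lay above every sedentary array, a separation in that direction that 1.95% of all genes tested had. Among these 8, the other probe sets of Hadhb and Hadh that passed the filter had groups that overlapped. For Hadha and Acaa2 a single exercised array fell within the sedentary range. Because these are RNA extracts of whole tissue, fewer cells of a type and less RNA per cell cannot be told apart, nor can their opposites.

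**Figure D1:**
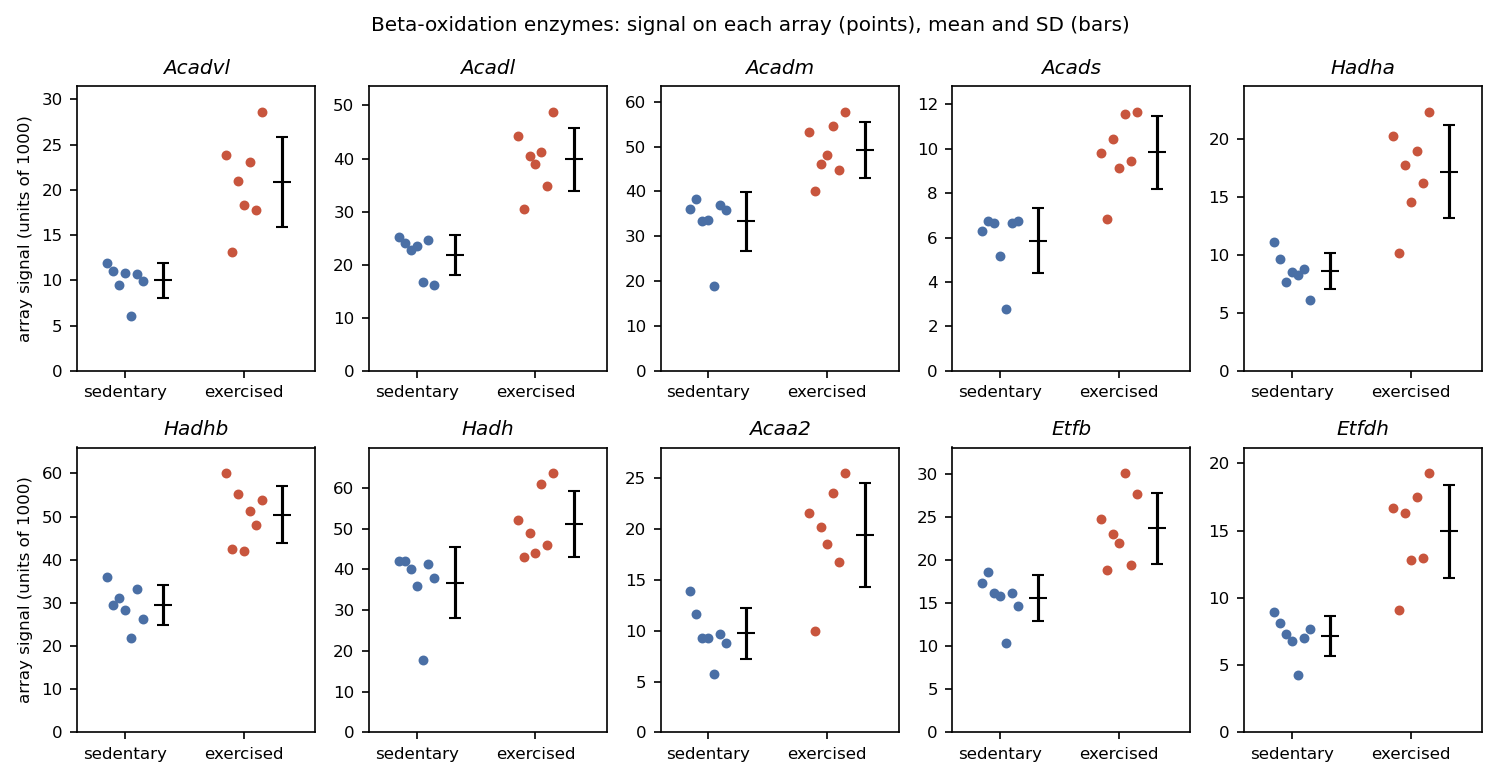
Signal of each of the 10 enzymes on each of the 14 arrays (array intensity, on a linear axis that starts at 0), as points for 7 sedentary and 7 exercised arrays with the group mean and SD as bars. The groups are separate for 8 genes and overlap at exercised array 2 for Hadha and Acaa2.

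Acadvl (probe set 1424184_at) encodes the dehydrogenase that opens the cycle for very long chains at the inner mitochondrial membrane. Its sedentary signals ran from 6081.6 through a median of 10691.4 to 11925.4, and its exercised signals from 13181.3 through 20990.3 to 28622.8. The groups were separate, with the highest sedentary signal below the lowest exercised one. Mean signal was 9993 ± 1899 (SD, n = 7) in sedentary and 20840 ± 4984 (SD, n = 7) in exercised arrays. The log2 difference was 1.05 (SE 0.17), which is 2.07-fold, with a limma adjusted p of 0.00304, and 1.14% of all genes had a larger difference.

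Acadl (1448987_at) encodes the long-chain dehydrogenase. Sedentary signals were 16247 at the lowest, 23477.5 at the median and 25278.5 at the highest, and exercised signals were 30498.2, 40573.8 and 48787.4 by the same measures. No exercised array reached down to the sedentary range. Means were 21902 ± 3777 and 39863 ± 5981 (SD, n = 7 each), a log2 difference of 0.87 (SE 0.12) or 1.83-fold, with a limma adjusted p of 0.00208.

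Acadm (1415984_at) encodes the medium-chain dehydrogenase. It ran from 18947.7 through 35794.6 to 38230.2 in sedentary arrays and from 40136.4 through 48066.5 to 57713.6 in exercised arrays. The groups did not overlap, although the lowest exercised and highest sedentary signals lay close together, and sedentary array 5 lay far under the other sedentary arrays. Means were 33305 ± 6556 and 49226 ± 6187 (SD, n = 7 each), and the log2 difference was 0.58 (SE 0.14), 1.5-fold, with a limma adjusted p of 0.0244. The call was lost on leaving out exercised array 1, 5 or 7, each alone, at limma adjusted p values of 0.0532, 0.0546 and 0.057.

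Acads (1460216_at) encodes the short-chain dehydrogenase. Its sedentary signals had a lowest of 2765.7, a median of 6666.3 and a highest of 6755.3, and its exercised signals had a lowest of 6852, a median of 9817.4 and a highest of 11651.9. Separation here rested on a narrow gap between the top sedentary and the bottom exercised array. Means were 5865 ± 1479 and 9843 ± 1644 (SD, n = 7 each), a log2 difference of 0.78 (SE 0.18) or 1.72-fold, with a limma adjusted p of 0.0246. Leaving out exercised array 3, 5 or 7, each alone, ended the call at limma adjusted p values of 0.0526, 0.0556 and 0.057, and so did a covariate of RNA integrity, the log2 ratio of 3' to 5' Gapdh control probe sets, at 0.0596. That ratio was -0.45 ± 0.07 in sedentary and -0.40 ± 0.06 in exercised arrays (SD, n = 7 each).

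The chain-length classes were compared inside each array, as the log2 ratio of one dehydrogenase to Acads, so that the overall scale of an array cancels. Ratios of different probe sets carry probe affinities, so only their change is read. The Acadvl to Acads ratio averaged 0.79 ± 0.25 in sedentary and 1.06 ± 0.16 in exercised arrays (SD, n = 7 each), a difference of 0.27 (SE 0.11), and all 7 exercised arrays lay above the sedentary median. The exact two-sided permutation p was 0.0321, or 0.0641 after Benjamini-Hochberg adjustment over the 6 ratios tested, which did not pass. The Acadl to Acads ratio averaged 1.93 ± 0.40 and 2.02 ± 0.13 (SD, n = 7 each), a difference of 0.09 (SE 0.16) with an exact permutation p of 0.593, adjusted 0.593. The difference was -0.02 without sedentary array 7. The Acadm to Acads ratio averaged 2.52 ± 0.16 and 2.33 ± 0.14 (SD, n = 7 each), a difference of -0.19 (SE 0.08), with 1 of 7 exercised arrays above the sedentary median and an exact permutation p of 0.0297, adjusted 0.0641. None of these 3 ratios to Acads passed at the chosen threshold with all arrays at the deposited scaling. The dehydrogenases other than Acads were not among the tested pairs, and their ratios are given as a description with no test. The Acadvl to Acadm log2 ratio ran from -1.85 to -1.59 in sedentary and from -1.60 to -1.01 in exercised arrays, with means of -1.73 ± 0.10 and -1.27 ± 0.20 (SD, n = 7 each), and 6 of 7 exercised arrays, all but array 2, lay above the sedentary range. For Acadl to Acadm the means were -0.59 ± 0.28 and -0.31 ± 0.08, and for Acadvl to Acadl they were -1.14 ± 0.23 and -0.96 ± 0.15 (SD, n = 7 each), and in both pairs 0 exercised arrays lay above the sedentary range. Acadvl to Acads and Acadm to Acads each passed in only 2 of the 14 fits that leave out 1 array. For Acadvl to Acads these were without sedentary array 5 (0.32, exact permutation adjusted p 0.0280) and without exercised array 2 (0.29, adjusted 0.0385). For Acadm to Acads they were without sedentary array 3 (-0.23, exact permutation adjusted p 0.0490) and without exercised array 2 (-0.23, adjusted 0.0350).

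**Figure D2:**
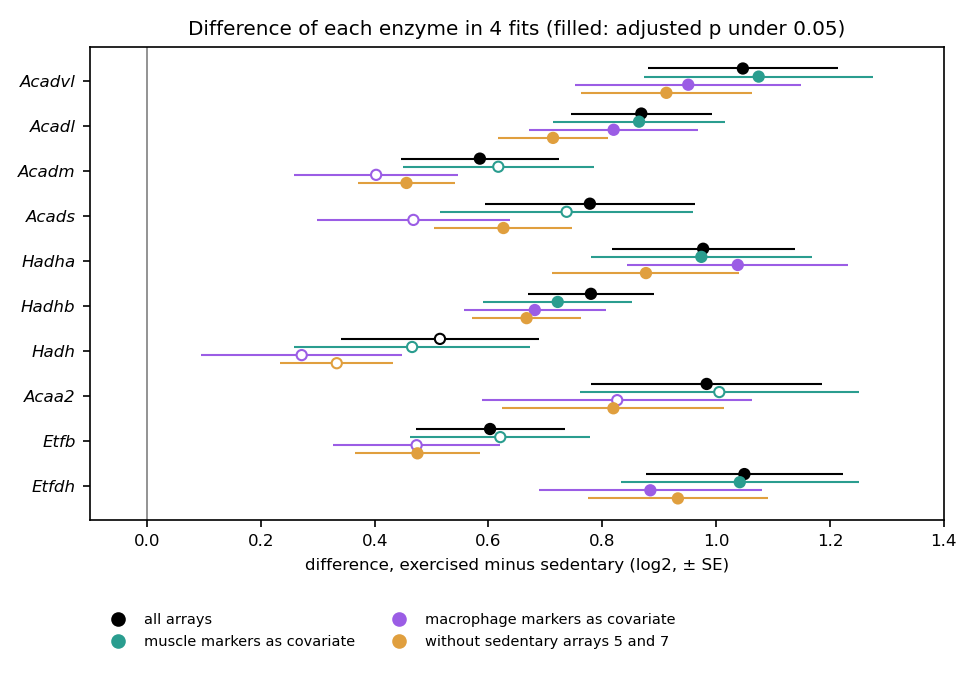
Exercised minus sedentary difference of each enzyme (log2, with SE bars from limma) over all arrays, with muscle or macrophage markers as a covariate, and without sedentary arrays 5 and 7. Filled points have an adjusted p under 0.05, every point lies above 0, and over all arrays Hadh, at 0.51, is the open one.

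Hadha (1452173_at) encodes the trifunctional protein's alpha subunit, which hydrates long-chain enoyl-CoA and dehydrogenates the product. Its sedentary signals ran from 6092.8 through 8538.9 to 11123.1, and its exercised signals from 10169.7 through 17779.1 to 22344.7. Exercised array 2 lay within the sedentary range, below sedentary array 1, and the other 6 exercised arrays lay above it. Means were 8604 ± 1569 and 17194 ± 4016 (SD, n = 7 each), with a log2 difference of 0.98 (SE 0.16), 1.97-fold, and a limma adjusted p of 0.00329.

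Hadhb (1437172_x_at) encodes the beta subunit, which carries the long-chain thiolase. Sedentary signals were 21885.8 at the lowest, 29455.9 at the median and 35975.5 at the highest, against 42133.9, 51358.9 and 60020.7 in exercised arrays. The groups were separate by a wide gap at this probe set. Means were 29466 ± 4651 and 50451 ± 6663 (SD, n = 7 each), a log2 difference of 0.78 (SE 0.11) or 1.72-fold, with a limma adjusted p of 0.00200. With all probe sets tested, a second Hadhb probe set (1426522_at) had a log2 difference of 0.89 (SE 0.14, limma adjusted p 0.00329), with overlapping groups. The remaining one, 1442732_at, is far dimmer, with a mean signal of 665, and had 0.17 (SE 0.15, adjusted p 0.536), also with overlap.

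Hadha and Hadhb are neighbours on mouse chromosome 5, transcribed away from each other, with starts 273 bases apart in RefSeq's GRCm38.p6. Their promoter windows, 250 bases before to 50 after each start, share 228 bases. The Hadhb window, at chr5:30155003-30155302 on the plus strand, is shown because it contains that shared stretch. Capitals mark GGGCGG, the core of the GC box bound by Sp1-type factors, on either strand, and 4 such matches stand in it.
Hadhb: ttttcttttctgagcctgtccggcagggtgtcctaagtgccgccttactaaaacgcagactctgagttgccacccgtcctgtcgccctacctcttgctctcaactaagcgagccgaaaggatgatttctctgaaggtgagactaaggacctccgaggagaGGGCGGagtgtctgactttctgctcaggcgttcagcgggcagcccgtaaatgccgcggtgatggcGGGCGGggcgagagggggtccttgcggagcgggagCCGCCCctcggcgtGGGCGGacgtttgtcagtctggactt

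Hadh (1455972_x_at) encodes the matrix enzyme that dehydrogenates medium- and short-chain hydroxyacyl-CoA. Its sedentary signals ran from 17656.8 through 40228.6 to 42012.3, and its exercised signals from 43124.9 through 48837.1 to 63586.3. The groups did not overlap, but their spread was wide, since sedentary array 5 lay far below the next sedentary array. Means were 36744 ± 8708 and 51249 ± 8137 (SD, n = 7 each). The log2 difference was 0.51 (SE 0.17), 1.43-fold, with a limma adjusted p of 0.0977, which did not pass. Without sedentary array 5 the difference was smaller, 0.35, and passed at a limma adjusted p of 0.0417. A second Hadh probe set (1460184_at) had 0.58 (SE 0.13, limma adjusted p 0.0194 with all probe sets tested) and the other (1436756_x_at) 0.54 (SE 0.20, adjusted p 0.135), and the groups overlapped at both, so the call of this gene depends on the probe set and on 1 array.

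Acaa2 (1428146_s_at) encodes the thiolase that cleaves medium-chain ketoacyl-CoA. Its sedentary signals ran from 5715.3 through 9255.7 to 13858.6, and its exercised signals from 10018 through 20212.4 to 25461. Again exercised array 2 lay within the sedentary range, below sedentary array 1, and the other 6 lay above it. Means were 9739 ± 2516 and 19418 ± 5077 (SD, n = 7 each), with a log2 difference of 0.98 (SE 0.20), 1.98-fold, and a limma adjusted p of 0.0116. The other Acaa2 probe sets had 0.93 (1428145_at, limma adjusted p 0.0195) and 0.95 (1455061_a_at, adjusted p 0.0396). Probe sets whose names end in _x_at or _s_at, as for Hadhb, Hadh and Acaa2, can also match closely similar sequences.

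For the later steps, the long-chain Hadha was set against Hadh and the long-chain Hadhb against Acaa2. The Hadha to Hadh log2 ratio averaged -2.06 ± 0.49 in sedentary and -1.60 ± 0.23 in exercised arrays (SD, n = 7 each), a difference of 0.46 (SE 0.21) with an exact permutation p of 0.0431, adjusted 0.0647. It passed in only 2 of the 14 fits that leave out 1 array. These were without sedentary array 5 (0.63, exact permutation adjusted p 0.0105) and without exercised array 2 (0.54, adjusted 0.0385). The Hadhb to Acaa2 ratio averaged 1.62 ± 0.22 and 1.42 ± 0.34 (SD, n = 7 each), a difference of -0.20 (SE 0.15) with an exact permutation p of 0.204, adjusted 0.245. It passed in only 1 of those 14 fits, without exercised array 2, at -0.31 with an adjusted exact permutation p of 0.0385. At the main probe sets, neither pair thus resolved a chain-length difference over all 14 arrays, and the signs of the pairs were opposite.

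Etfb (1428181_at) encodes the beta subunit of the electron transfer flavoprotein, the common acceptor for the dehydrogenases. Its sedentary signals ran from 10372.9 through 16158.7 to 18696, and its exercised signals from 18852.7 through 23021.5 to 30117.2. The groups met closely without overlapping. Means were 15628 ± 2638 and 23727 ± 4149 (SD, n = 7 each), a log2 difference of 0.60 (SE 0.13) or 1.52-fold, with a limma adjusted p of 0.0152.

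Etfdh (1451084_at) encodes the oxidoreductase that passes those electrons to ubiquinone. Sedentary signals had a lowest of 4269.3, a median of 7302.8 and a highest of 8987.6, and exercised signals a lowest of 9135.8, a median of 16303.7 and a highest of 19255.5. The groups were separate, with exercised array 2 just above the sedentary range. Means were 7170 ± 1478 and 14956 ± 3467 (SD, n = 7 each). The log2 difference of 1.05 (SE 0.17), 2.07-fold, had a limma adjusted p of 0.00342, and 1.13% of all genes had a larger one.

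Etfdh rose more than Etfb. Their within-array log2 ratio ran from -1.27 through a median of -1.19 to -0.93 in sedentary arrays and from -1.04 through -0.59 to -0.50 in exercised arrays. The groups overlapped at the edge, and all 7 exercised arrays lay above the sedentary median. Means were -1.13 ± 0.13 and -0.68 ± 0.19 (SD, n = 7 each), a difference of 0.45 (SE 0.09) with an exact two-sided permutation p of 0.00175, or 0.0105 adjusted over the 6 ratios. It was the only ratio of the 6 to pass with all arrays at the main probe sets and the deposited scaling, with no replicate block. With all arrays, Acadm to Acads also passed under quantile normalisation (-0.24, exact permutation adjusted p 0.0420), and Hadhb to Acaa2 with the dim Hadhb probe set (-0.81, adjusted 0.0280). Over 3432 assignments the smallest p possible was 0.000583.

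**Figure D3:**
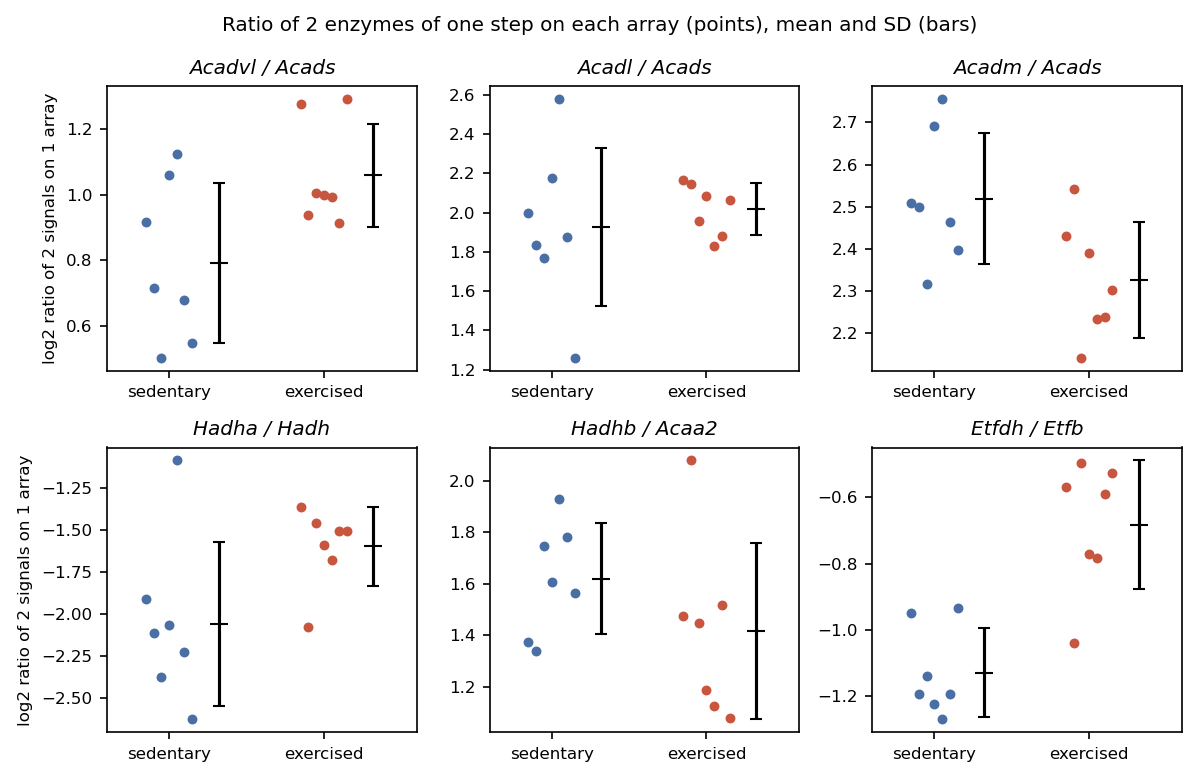
Within-array log2 ratio of 6 pairs of enzymes on the 7 sedentary and 7 exercised arrays, as points with group mean and SD as bars. Every pair overlaps between groups, and Etfdh to Etfb shows the clearest shift, from a mean of -1.13 to -0.68.

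RefSeq's table for GRCm38.p6 held promoter windows for 9 of the 10 members, among 32851 windows of 300 bases in all. Their GC content ran from 50.7% to 70.3%, against a median of 52.7% over all windows. The motifs were searched on both strands. GGGCGG stood in 7 of the 9 windows and in 35.7% of all windows, and the Hadha and Hadhb windows share one such match. CCAAT, the letters read by NF-Y, stood in 3 of the 9 and in 37.4% of all. GCGCNTGCG, the core of the nuclear respiratory factor 1 site, stood in the 3 windows of Acadm, Etfb and Etfdh and in 6.31% of all. AGGTCA, the nuclear receptor half-site, stood in Acadm and Acadvl and in 16.3% of all. Its longer form AAGGTCA stood in Acadm at the same place and in 4.72% of all. TNAAGGTCA, the extended site of estrogen-related receptors, which includes both shorter forms, stood in 0 of the 9 and in 1.28% of all. A direct repeat of AGGNCA spaced by 1 base, the form read by PPAR with RXR, also stood in 0 of the 9 and in 0.381% of all. A match is a description of letters in these windows and not evidence of binding.

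The 4 windows that hold the nuclear receptor half-site or the nuclear respiratory factor 1 core are shown, with capitals for AGGTCA, for GGGCGG and for GCGCNTGCG on either strand. They lie at chr11:70015379-70015678 on the minus strand for Acadvl, chr3:153944594-153944893 on the minus strand for Acadm, chr7:43443822-43444121 on the plus strand for Etfb and chr3:79628718-79629017 on the minus strand for Etfdh. The Acadvl half-site starts at -87 from the gene's start, and the Acadm one at -249 in the opposite orientation.
Acadvl: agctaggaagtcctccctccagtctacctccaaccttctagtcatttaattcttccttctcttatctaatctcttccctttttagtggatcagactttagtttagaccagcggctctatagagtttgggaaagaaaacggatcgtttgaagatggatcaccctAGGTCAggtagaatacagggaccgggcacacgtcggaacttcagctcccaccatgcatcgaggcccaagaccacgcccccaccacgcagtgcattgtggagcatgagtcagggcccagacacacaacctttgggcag
Acadm: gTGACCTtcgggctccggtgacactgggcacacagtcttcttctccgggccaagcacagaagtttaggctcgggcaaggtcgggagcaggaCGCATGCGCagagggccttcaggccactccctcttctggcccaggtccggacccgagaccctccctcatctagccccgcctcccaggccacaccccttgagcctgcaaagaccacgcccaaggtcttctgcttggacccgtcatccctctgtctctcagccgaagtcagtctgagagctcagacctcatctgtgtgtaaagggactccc
Etfb: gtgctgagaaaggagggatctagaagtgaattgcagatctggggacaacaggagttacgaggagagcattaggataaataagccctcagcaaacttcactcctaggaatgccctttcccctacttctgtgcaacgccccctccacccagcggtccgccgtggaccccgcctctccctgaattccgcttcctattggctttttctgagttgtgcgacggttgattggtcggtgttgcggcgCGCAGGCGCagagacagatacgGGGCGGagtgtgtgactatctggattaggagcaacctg
Etfdh: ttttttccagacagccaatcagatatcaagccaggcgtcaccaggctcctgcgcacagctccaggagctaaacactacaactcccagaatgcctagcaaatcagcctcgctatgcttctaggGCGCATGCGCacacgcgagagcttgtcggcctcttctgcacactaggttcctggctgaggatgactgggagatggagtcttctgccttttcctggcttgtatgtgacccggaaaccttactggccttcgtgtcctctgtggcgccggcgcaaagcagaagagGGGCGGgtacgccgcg

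The same arrays tended to be the lowest or the highest for most members. Exercised array 2 was the lowest exercised array for 9 of the 10 members, with array 4 lowest for Hadhb, and exercised array 7 was the highest for 8. Sedentary array 5 was the lowest sedentary array for 8, with array 7 lowest for Acadl and Hadha, and sedentary array 1 was the highest for 7. The members' mean log2 level ran from 13.18 to 14.09 in sedentary arrays and from 14.14 to 14.95 in exercised arrays. Array 2 was picked out by the members' own values, and Hadha and Acaa2 overlapped only there. Without it the groups were therefore bound to be separate for 10 of 10 members. Of all genes 2.96% had that separation, which is not a like comparison, since the array was not picked by those genes. Without sedentary array 5 and exercised array 2, a pair chosen after seeing the data, 10 of 10 members rose. Their median difference was 0.81, and 4.34% of all genes rose. Without sedentary arrays 5 and 7, 9 of 10 rose with a median of 0.69, where 4.05% of all genes rose.

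Markers of other cell types also differed between the arrays. All 20 skeletal muscle markers had positive differences, with a median of 2.89, and none passed the adjusted limma test, with 15 of them higher if unadjusted p values under 0.05 are counted. Their mean log2 level ran from 8.17 to 13.16 in sedentary and from 8.51 to 15.28 in exercised arrays, and their summed signal from 9079.6 to 335495 and from 11787.5 to 913677. Exercised arrays 1 and 4 held the least muscle signal of their group, at mean log2 levels of 8.95 and 8.51, and on each of them 10 of 10 members lay above the highest sedentary array. Array 1 had the highest level of keratinocyte markers, which are skin genes, at 11.52, against at most 9.25 in sedentary arrays. Exercised array 6 had 10.36, also above the sedentary range, and exercised array 4 had 9.25. All 3 keratinocyte markers had positive differences, with a median of 0.72, and none passed. Sedentary array 3, with the most muscle signal of its group, lay above the sedentary median for 2 of 10 members. It was itself the median array for Hadh, Etfb and Etfdh, and for Acaa2 it had 9255.6 against a median of 9255.7. With the muscle markers as a covariate 5 members rose, Acadvl, Acadl, Hadha, Hadhb and Etfdh, with a median difference of 0.80 over the 10, where 1.41% of all genes rose. The calls of Acadm (0.62, adjusted p 0.0842), Acads (0.74, 0.125), Acaa2 (1.01, 0.0567) and Etfb (0.62, 0.0672) were lost in that limma fit, at differences close to those without it.

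Of the macrophage markers, 0 of 10 had a positive difference and 1, Tyrobp, fell, with a median of -0.25. Their mean log2 level was 12.94 ± 0.33 in sedentary and 12.63 ± 0.14 in exercised arrays (SD, n = 7 each), and it was highest, 13.50, on sedentary array 5, which was lowest for most members. With it as a covariate the same 5 members rose, where 1.3% of all genes rose, and the median difference of the 10 was 0.75. Here Acadm (0.40, adjusted p 0.186), Acads (0.47, 0.189), Acaa2 (0.83, 0.0902) and Etfb (0.47, 0.118) did not pass limma's test. Mature adipocyte markers, of which 8 were tested, had a mean log2 level of 14.68 ± 0.43 in sedentary and 14.69 ± 0.17 in exercised arrays (SD, n = 7 each), and none passed. The level on sedentary array 5 was 13.80, the lowest. Lymphocyte markers had a median difference of -0.62 over 8 tested, and none passed. Their mean log2 level was 8.86 on sedentary array 7, 8.63 on exercised array 5 and 9.97 on exercised array 7, and from 11.76 to 13.29 on the other arrays. Exercised arrays 7 and 5 had the highest mean levels of the members, 14.95 and 14.83. Sedentary array 7 went the other way, at 13.75, lower than every sedentary array but array 5. The part of muscle or macrophage RNA in the members' differences was not tested beyond these fits, and that of lymphocyte or keratinocyte RNA was not tested.

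Genes listed as brown and beige adipocyte markers were also higher in exercised arrays. Of 9 tested, 5 rose, where 4% of all genes rose, and 9 had positive differences, with a median of 2.06. The 9 were Ucp1, Cidea, Cox7a1, Cox8b, Dio2, Elovl3, Ppargc1a, Prdm16 and Otop1, and Zic1 was listed but not tested. Whether their signal came from brown or beige adipocytes or from other cells, such as muscle, was not tested. Their mean log2 level was 10.62 ± 0.89 in sedentary and 12.55 ± 0.44 in exercised arrays (SD, n = 7 each), and their summed signal ran from 5107.9 to 55276.7 and from 54180.5 to 163904. Exercised array 2, the lowest exercised array for most members, was also the lowest for these markers, at 11.70, just under sedentary array 1 at 11.71, the highest sedentary array. The 7 exercised arrays had the same order by the members' mean as by these markers' mean, at 7 of 7 ranks, against 1 of 7 ranks in the sedentary arrays. Exact ranks understate the likeness in the sedentary group. There array 1 was the highest by both means, and arrays 5 and 7 were the lowest by both. Their members' means were 13.18 and 13.75, and their marker means 10.26 and 8.86. By the muscle markers 0 of 7 ranks matched in exercised and 1 of 7 in sedentary arrays. With the brown and beige markers as a covariate the members' median difference was 0.30, 10 of 10 remained positive and 0 passed, with 1 at an unadjusted p under 0.05. In that limma fit 0% of all genes rose: 0 of 12945 passed in either direction, and 1146 had an unadjusted p under 0.05. Because the marker level and the group are nearly separate across arrays, the 2 can hardly be told apart in this fit.

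**Figure D4:**
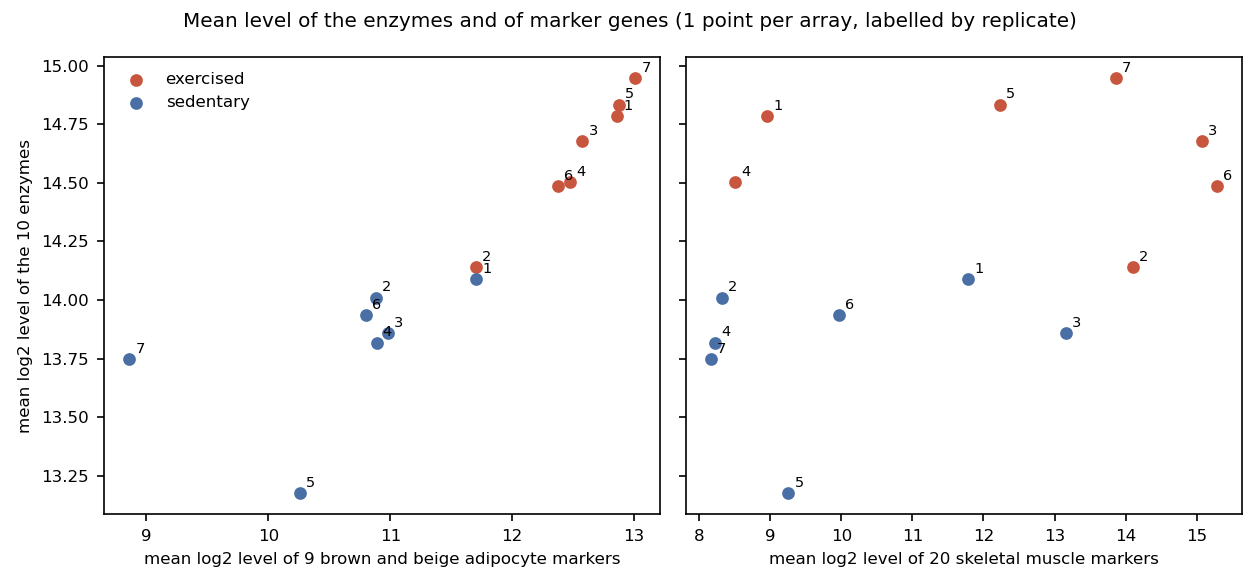
Mean log2 level of the 10 enzymes on each array against the mean log2 level of 9 brown and beige adipocyte markers and of 20 skeletal muscle markers, with 1 point per array labelled by its replicate number. Exercised arrays 1 and 4 have muscle levels of 8.95 and 8.51 within the sedentary range and enzyme levels above all sedentary arrays, and the exercised arrays keep 1 order by enzymes and by brown and beige markers.

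The rest of the route was described by gene lists. Over all genes, 1.41% rose with the muscle covariate and 4.05% rose without sedentary arrays 5 and 7. Under quantile normalisation 505 of 12945 genes rose. Of 12 other enzymes of mitochondrial beta-oxidation, 6 rose and 0 fell, against 4% of all genes that rose, and the median difference was 0.51. Eci1, which shifts double bonds of unsaturated chains into place, went from 11663 ± 2279 to 19688 ± 3830.3 (SD, n = 7 each), a log2 difference of 0.76 (limma adjusted p 0.00986). Decr1, the reductase for chains with several double bonds, went from 15212 ± 2947 to 24771 ± 4163 (0.71, adjusted p 0.0116). Etfa, the partner subunit of Etfb, had 0.57 (limma adjusted p 0.0244), close to the 0.60 of Etfb, and Acad11, a dehydrogenase of long chains, had 0.63 (adjusted p 0.0395). With the muscle covariate 2 of these 12 rose.

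Entry into the mitochondrion was covered by 8 tested genes of the carnitine shuttle and of fatty acid activation. Of these, 3 rose and 0 fell, against 4% of all genes that rose, with a median of 0.28. Cpt1a was not among those that rose, with a log2 difference of 0.01 (limma adjusted p 0.966). Cpt1b, Acsl1 and Acsl6 were listed but not tested. Slc25a20, the carrier that brings acylcarnitine across the inner membrane, went from 7059 ± 1595 to 16921 ± 3723 (SD, n = 7 each), a log2 difference of 1.26 (limma adjusted p 0.00143). Cpt2, which restores acyl-CoA inside the matrix, went from 9198 ± 1940 to 17490 ± 2928 (0.94, adjusted p 0.00304), and Crat, the carnitine acetyltransferase, had 0.65 (adjusted p 0.00526). Slc25a20, Cpt2 and Crat also rose with the muscle covariate.

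The peroxisomal pathway takes chains that mitochondria handle poorly. Of 12 tested genes 3 rose and 0 fell, against 4% of all genes that rose, with a median of 0.38. Ehhadh, the bifunctional enzyme of the peroxisome, went from 2956 ± 995 to 7409 ± 1736 (SD, n = 7 each), a log2 difference of 1.35 (limma adjusted p 0.00285). Abcd3, a peroxisomal acyl-CoA transporter, had 0.78 (adjusted p 0.00849), and Amacr, the racemase for branched chains, 0.66 (adjusted p 0.0101). With the muscle covariate 2 of the 12 rose, Ehhadh and Abcd3, and without sedentary arrays 5 and 7 the count was 6.

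Other users of the same electron carriers and products were covered by 2 short lists, each read beside the 4% of all genes that rose. Of 5 tested amino acid dehydrogenases that feed the electron transfer flavoprotein, 1 rose, Ivd of leucine breakdown (0.65, limma adjusted p 0.0249), with a list median of 0.28. Of 4 genes of the propionyl-CoA route, 1 rose, Mmut, the methylmalonyl-CoA mutase (0.46, adjusted p 0.0358), with a list median of 0.49. With the muscle covariate 0 rose in either list, under quantile normalisation 0 rose in the propionyl-CoA list, and without sedentary arrays 5 and 7 the counts were 2 and 3.

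Among 11 tested regulators of fatty acid oxidation genes, 4 rose and 0 fell, against 4% of all genes that rose. The list median was 0.17. Ppara, the nuclear receptor known as a master regulator of this pathway in liver, went from 1014 ± 272 to 3583 ± 1150 (SD, n = 7 each), a log2 difference of 1.76 (limma adjusted p 0.00168). The coactivators Ppargc1a (1.1, adjusted p 0.0307) and Ppargc1b (0.98, adjusted p 0.0141) rose as well, as did Esrra, an estrogen-related receptor, from 2018 ± 292 to 3377 ± 473 (SD, n = 7 each; 0.73, adjusted p 0.00248). Ppargc1a is in the brown and beige marker list too. With the muscle covariate 2 of the 11 rose.

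Genes of fatty acid synthesis, the opposing route, were listed together with Mlycd, which breaks down malonyl-CoA, the building block of that synthesis. Of the 10 tested, 5 rose and 0 fell, against 4% of all genes that rose, with a median of 0.76. Among the 5 was Mlycd (0.63, limma adjusted p 0.0141). Acacb, the carboxylase whose product restrains entry of fatty acids into mitochondria, went from 3902 ± 1424 to 10802 ± 3123 (SD, n = 7 each), a log2 difference of 1.48 (limma adjusted p 0.00304). Me1, which supplies NADPH, had 0.84 (adjusted p 0.0388), Acaca, the carboxylase of the cytosol, 0.79 (adjusted p 0.0305), and Acly, which makes cytosolic acetyl-CoA, 0.75 (adjusted p 0.0474). With the muscle covariate 2 of the 10 rose, Acacb and Mlycd, and the same 2 rose under quantile normalisation. Without sedentary arrays 5 and 7, 5 rose and 1, the desaturase Scd2, fell (-0.74, limma adjusted p 0.0366), where it had -0.40 (adjusted p 0.384) with all arrays.

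**Figure D5:**
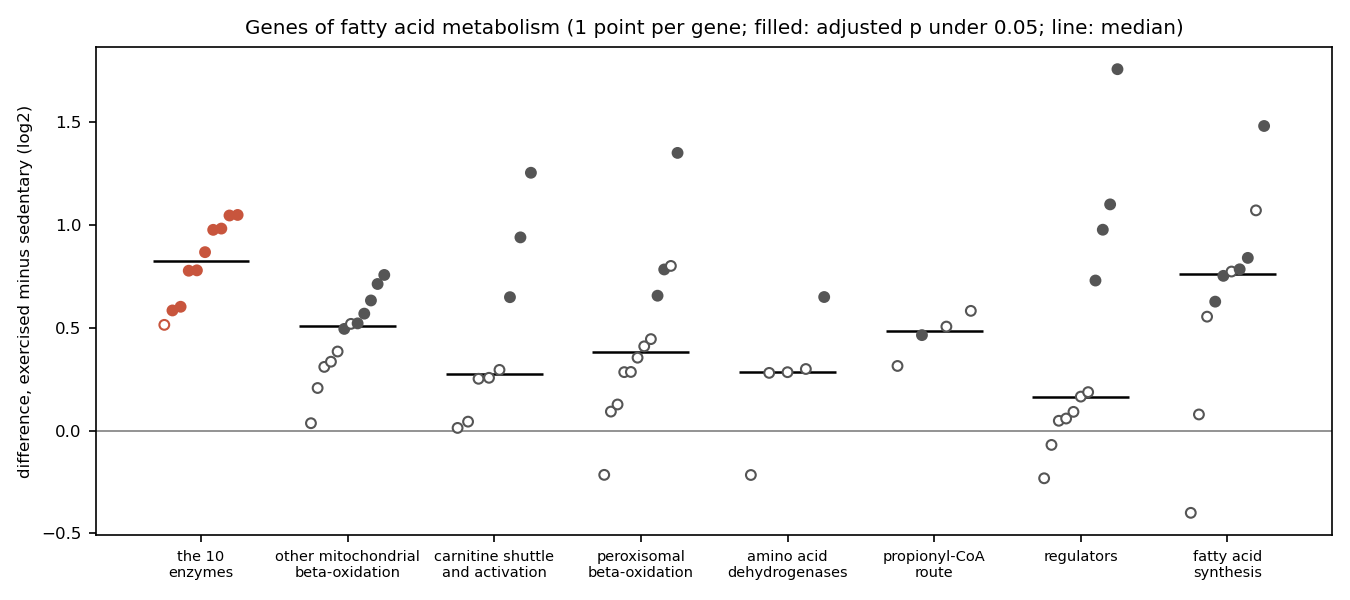
Exercised minus sedentary log2 differences of the tested genes in each list, as 1 point per gene, filled where the adjusted p was under 0.05, with a line at the list median. The 10 enzymes have a median of 0.82, the 12 other mitochondrial beta-oxidation enzymes 0.51 and the 10 genes listed with fatty acid synthesis 0.76.

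The genes whose pattern was most like that of the members were sought over the 14 arrays after subtracting each group's mean, so that the group difference did not enter. The 5 highest Pearson correlations with the members' mean standardised level were those of Idh3b (0.979), Idh3g (0.976), Sdhb (0.967), Ndufb9 (0.964) and Sucla2 (0.964). Idh3b, Idh3g and Sucla2 encode subunits of enzymes of the citric acid cycle, Sdhb a subunit of succinate dehydrogenase and Ndufb9 a subunit of respiratory complex I. All 5 rose, with log2 differences of 0.71, 0.63, 0.60, 0.49 and 0.88 in that order and limma adjusted p values from 0.00248 to 0.0217. Without sedentary array 5 these correlations ran from 0.940 to 0.964. The group means and the standardisation still included that array, so its influence was not wholly removed. The 5 lowest were those of Dsn1 (-0.903), Nup37 (-0.900), Fgr (-0.897), Cdca2 (-0.888) and Adam8 (-0.888). None of these passed the adjusted test, and without sedentary array 5, on the same terms, the correlations ran from -0.849 to -0.793. The arrays share scaling and tissue composition, so these values are a description over 14 points.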

How the data were processed

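Total RNA of frozen subcutaneous white fat was hybridised to 14 Affymetrix arrays, and the deposited values are intensity on a linear scale made by the authors with MAS5, per the submitters' processing notes, for 45101 probe sets. MAS5's version is not given in the sources used here. Array medians of 531.3 to 617.4 share 1 scale, so differences in total RNA per cell are lost. Groups and replicate numbers came from the labels and titles.

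A pseudocount of 46.7, equal to the 10th percentile of the table, was added before log2, which understates changes of weak genes. Control probe sets (64) and probe sets averaging below 389.7, the 40th percentile, were not tested. Symbols came from the platform annotation (34945 probe sets with 1 symbol, 932 with several and 9160 with none, the last 2 kinds not used), updated by Entrez identifier to GRCm38.p6 gene names for 34741, while 204 kept theirs. The 10 members have 18 probe sets, of which 16 passed the filter. Every gene was fitted in R 4.3.3 by limma 3.58.1, whose eBayes step used a mean-variance trend, with Benjamini-Hochberg adjustment over 12945 genes. The 6 within-array ratios had exact permutation tests in Python 3.11.15. Scripts were tested on simulated data.

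The members, lists and tests were chosen with earlier results of these data known. Named genes were the members, up to 4 of each list past the threshold with the largest difference, and the 5 most and 5 least correlated genes. Cpt1a, Mlycd, Scd2, the marker Tyrobp, the brown and beige markers and listed genes not tested were named outside that rule. Alternatives covered pseudocount, filter, scaling, probe set, variance model, array weights, covariates, replicate numbers and arrays left out. Leaving out sedentary array 5 with exercised array 2, and the brown and beige covariate, were chosen after seeing the data. The number of arrays limits the precision.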

Additional observations from a re-analysis of the deposited data

Results flagged for a closer look

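In the sedentary group, array 5 stood apart from the other 6 arrays for 6 of the 10 members. Its gap to the nearest array, as a share of the group's whole range, was 0.821 for Hadh, 0.810 for Acadm, 0.699 for Acads, 0.657 for Acadvl, 0.619 for Etfdh and 0.589 for Etfb, each above Dixon's critical value of 0.568 for 7 arrays. The log2 levels on that array were 14.11, 14.21, 11.46, 12.58, 12.08 and 13.35 in the same order. In all, 32 groups were examined and 6 met the criterion, and chance alone passes it in about 5% of groups, although members measured on 1 array are not independent. The same array held the lowest mature adipocyte marker level, 13.80, and the highest macrophage marker level, 13.50. Whether these have a part in the low enzyme levels was not tested. No exercised array met the criterion for a member.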

How the results depend on the processing

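Of 30 alternative fits other than the brown and beige covariate, Acadvl, Acadl, Hadha, Hadhb and Etfdh passed in every one at their main probe set, and every member kept a positive difference. The 10 members counted 9 that rose, where 4% of all genes rose. They counted 5 with the replicate number as a block, where 136 of 12945 genes rose. With the muscle covariate they counted 5 (1.41% of all genes), and with the macrophage covariate 5 (1.3%). The brown and beige covariate left 0, with 0% of all genes. On leaving out 1 array the members counted 7 to 10, where 309 to 591 of 12945 genes rose. The labels do not say whether same-numbered arrays share anything beyond the number. Their correlations after subtracting group means were -0.43 to 0.38, over 0.1 in 3 of 7 pairs, which cannot settle it. Under the block Etfdh to Etfb had 0.45 with an adjusted p of 0.0938 by an exact sign-flip permutation, whose smallest unadjusted p is 0.0156. Over all genes 716 calls became 161 under the block, 221 with muscle, 295 with macrophage, 398 with the Gapdh 3' to 5' ratio and 0 with brown and beige markers. On leaving out 1 array they ran from 402 to 853, with 424, 410, 412, 477 and 402 without exercised array 1, 3, 5, 6 and 7. Leaving out 1 array moved the ratios over 0.22 to 0.32 (Acadvl to Acads), -0.0207 to 0.20 (Acadl to Acads, at -0.0207 without sedentary array 7), -0.23 to -0.15 (Acadm to Acads), 0.37 to 0.63 (Hadha to Hadh), -0.31 to -0.15 (Hadhb to Acaa2) and 0.42 to 0.51 (Etfdh to Etfb). By exact permutation, Acadm to Acads passed under quantile normalisation (-0.24, adjusted 0.0420), Hadhb to Acaa2 with the dim Hadhb probe set (-0.81, adjusted 0.0280), and Hadha to Hadh without sedentary arrays 5 and 7 (0.54, adjusted 0.0189). Without sedentary array 5 and exercised array 2, Acadvl to Acads (0.34, adjusted 0.0292), Acadm to Acads (-0.19, adjusted 0.0292) and Hadha to Hadh (0.71, adjusted 0.00649) passed. Over all alternatives, limma adjusted p values ran from 0.00108 to 0.674 for Acadm, 0.000553 to 0.653 for Acads and 0.0194 to 0.880 for Hadh, and exact permutation adjusted p values from 0.0280 to 0.128, 0.159 to 0.891, 0.0292 to 0.111, 0.00649 to 0.166, 0.0280 to 0.501 and 0.00350 to 0.0938 for the 6 ratios in the order above. The cause of these shifts was not tested.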
